A study of Mus musculus with 3 samples.

Results

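Haemoglobin and haem synthesis transcripts were described in 3 untreated mouse mammary tumours. The 9 genes were taken by symbol from a list of names and not by their values: the alpha globins Hba-a1 and Hba-a2, the beta globins Hbb-bs and Hbb-bt, and the haem synthesis enzymes Alas1, Alas2, Alad, Uros and Fech. They are 9 of the 47480 gene symbols in the tables. All 9 passed the filter on low counts, which had to be passed in all 3 tumours and left 12710 genes. In these data the globins were lower in tumour 1 than in tumours 2 and 3. The difference was 14.3- to 28.2-fold for the summed alpha genes and 4.05- to 4.22-fold for the summed beta genes. It was smaller with library totals alone or with the trend on GC content and transcript length removed. With DESeq2 size factors it was slightly larger. The enzymes did not share that order: Alas2 and Alad were also lowest in tumour 1, whereas Alas1 and Uros were highest there.

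Haemoglobin is a tetramer of a pair of alpha and a pair of beta globin chains, each holding 1 haem, an iron-bearing porphyrin that binds oxygen. Haem is built in a chain of enzymes that begins in the mitochondrion with 5-aminolevulinate synthase, runs through the cytosol and ends in the mitochondrion, where ferrochelatase inserts iron. The first step exists as a housekeeping enzyme, Alas1, and an erythroid enzyme, Alas2. Red blood cells are the textbook source of globin transcripts in a solid tissue, since reticulocytes still carry globin mRNA, while haem itself is made in nearly every cell for cytochromes and other haem proteins.

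All samples were tumours of the strain FVB-MMTV-Neu, in which the mouse mammary tumour virus promoter drives the Neu oncogene in mammary epithelium. According to the protocols the tumours were implanted into the mammary site of hosts of the same strain background, grew to 5 mm and stayed without treatment for 7 days more, but the design text speaks of tumours of untreated MMTV-Neu mice, so the tissue around them is uncertain. Neither the age of the mice nor the number of donors is given, and the spread between samples may in part be technical. With 1 group of 3 tumours, numbered by order of deposition, there is no condition to compare, and differences between tumours have no replicates behind them.

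Total estimated counts were 47449153, 11388769 and 17147394 in tumours 1, 2 and 3. Levels are CPM, counts per 1000000 of the scaled library total, and intervals in parentheses are exact 95% intervals that cover counting error only. File headers place tumour 1 in sequencing lane 1 and tumours 2 and 3 in lane 5, so lane and the difference of tumour 1 cannot be told apart, and tumours 2 and 3 give the values within 1 lane. Log2 CPM correlated across genes with r = 0.95 between tumours 2 and 3, and with r = 0.65 and 0.75 between tumour 1 and these, as a description over genes that are not independent. The count-weighted mean GC content was 50.4, 53.7 and 52.5% and the mean transcript length 3417, 2952 and 2815 bases. The epithelial markers Epcam, Krt8, Krt18, Cdh1 and Erbb2 summed to 1486, 1336 and 1985 CPM, with all 5 present in every tumour. Their orders differed: Epcam was highest in tumour 1, at 399, 120 and 244 CPM, and Krt8 lowest there, at 407, 734 and 1038 CPM. Krt18 was at 461, 245 and 453 CPM, Cdh1 at 144, 134 and 157 CPM and Erbb2 at 75.5, 104 and 93.6 CPM. In bulk tissue, fewer cells of a type and less RNA per cell cannot be told apart.

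The adult globin genes lie in near-identical pairs, which bears on every value given for a single copy. Hba-a1 (ENSMUSG00000069919.7, chromosome 11, 32283511 to 32284465, plus strand of GRCm38, which is mm10) lies on the same chromosome and strand as Hba-a2 (ENSMUSG00000069917.7, chromosome 11, 32296489 to 32297298, plus strand). Their coding sequences of 429 bases differ at 1 position, C381T, counted from 1 at the first base of the start codon, with the base of Hba-a1 first. Hbb-bs (ENSMUSG00000052305.6, chromosome 7, 103826534 to 103828096, minus strand) and Hbb-bt (ENSMUSG00000073940.3, chromosome 7, 103812524 to 103813996, minus strand) have coding sequences of 444 bases that also differ at 1 position, C417T. Both differences fall on base 3 of a codon and leave the residue the same, so each pair encodes 1 protein. The stretches of 41 coding bases around these positions are shown because they hold the only coding bases that tell the copies apart, here in capitals.
Hba-a1, coding bases 361 to 401: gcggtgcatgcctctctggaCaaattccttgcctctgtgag
Hba-a2, coding bases 361 to 401: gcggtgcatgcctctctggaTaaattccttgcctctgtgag
Hbb-bs, coding bases 397 to 437: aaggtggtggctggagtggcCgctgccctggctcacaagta
Hbb-bt, coding bases 397 to 437: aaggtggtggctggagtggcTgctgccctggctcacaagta

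Reads of 50 bases that miss these positions and the differing ends of the transcripts fit both copies. Of the 650 windows of 50 bases in the Hba-a1 transcript, 67.5% occur in Hba-a2, and 86.9% of the 505 windows of Hba-a2 occur in Hba-a1. For Hbb-bs and Hbb-bt the shares were 65.8% of 579 and 58.3% of 654 windows. The counts of a pair together are therefore firmer than the division within the pair, which Salmon estimates. Alas1 and Alas2 share no window of 50 bases, so their reads do not mix in this way. These sequences are those of the reference assembly, and whether the alleles of the FVB strain differ from them was not tested.

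The start regions of the globin genes and of Alas2 are shown next, since these are the erythroid genes of the list and all of them were lowest in tumour 1. Each sequence is the 120 bases before the gene start that RefSeq gives on GRCm38.p6, read on the strand of the gene. GENCODE models of these genes begin farther upstream or inside this window, and distances here are counted from the RefSeq start. Capitals mark matches on either strand to the TATA box letters (written TATAAA or TATAAG), to CCAAT, to CACCC, a motif bound by Klf factors, and to AGATAA or TGATAA, motifs bound by GATA factors.
Hba-a1, chr11:32283552-32283671, plus strand: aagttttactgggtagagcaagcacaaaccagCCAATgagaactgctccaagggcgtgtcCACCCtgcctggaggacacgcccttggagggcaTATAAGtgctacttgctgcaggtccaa
Hbb-bs, chr7:103827929-103828048, minus strand: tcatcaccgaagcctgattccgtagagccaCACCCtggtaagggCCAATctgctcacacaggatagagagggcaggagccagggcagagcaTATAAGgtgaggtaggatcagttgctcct
Hbb-bt, chr7:103813924-103814043, minus strand: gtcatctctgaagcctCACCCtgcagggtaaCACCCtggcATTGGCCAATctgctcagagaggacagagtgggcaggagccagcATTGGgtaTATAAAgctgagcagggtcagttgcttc
Alas2, chrX:150547297-150547416, plus strand: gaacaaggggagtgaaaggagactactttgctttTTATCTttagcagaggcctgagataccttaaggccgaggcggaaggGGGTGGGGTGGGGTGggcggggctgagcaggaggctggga

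The window of Hba-a2 holds the same bases as the Hba-a1 region with a shift of 3 bases, so it is not printed. All 4 globin windows hold a CCAAT match, a CACCC match and a TATA box match that begins 27 to 30 bases before the start. Of the same windows of all 32851 promoters in the table, 21.3% hold CCAAT, 31.7% hold CACCC, 6.34% hold TATAAA and 3.41% hold TATAAG. Alas2 has no TATA match in this window, but holds CACCC 3 times on the reverse strand, 26 to 40 bases before the start, and AGATAA once on the reverse strand. AGATAA occurs in 4.36% and TGATAA in 3.55% of all such windows. Neither printed nor unprinted globin windows hold these GATA letters, and matches of letters are a description only.

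**Figure D1:**
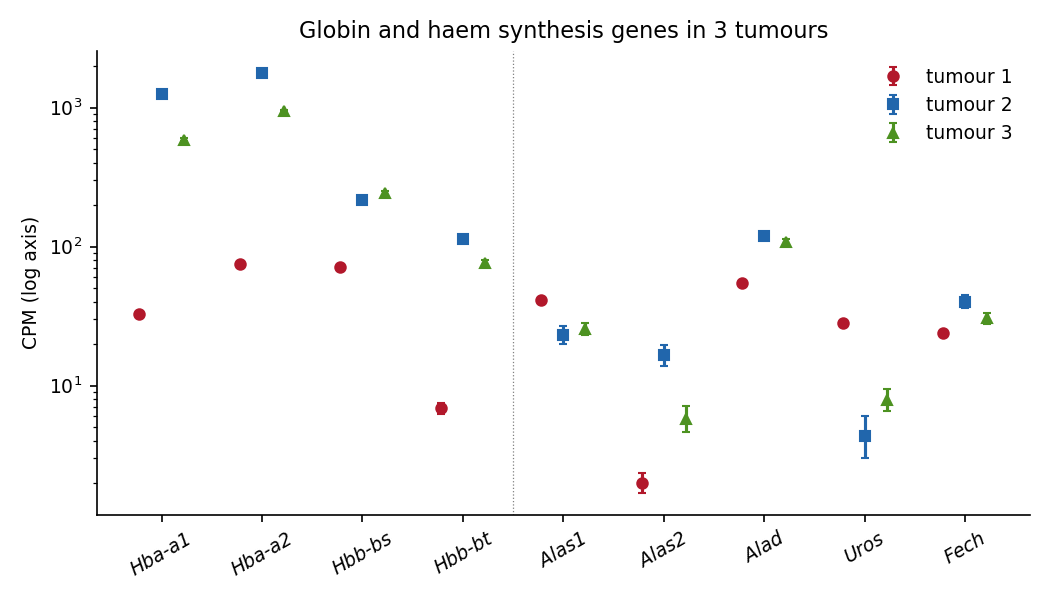
Level of each of the 9 genes in CPM (log axis) in tumours 1, 2 and 3, with exact 95% Poisson intervals for counting error. The 4 globin genes, left of the dotted line, were lowest in tumour 1, whereas Alas1 and Uros were highest there.

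The alpha globin genes differed widely between tumours. Hba-a1 was at 32.6, 1251 and 588 CPM in tumours 1, 2 and 3, from 2257, 10066 and 9250 counts. Hba-a2 was at 74.6, 1779 and 944 CPM, from 5163, 14310 and 14855 counts. Both genes were low in tumour 1 and highest in tumour 2, with tumour 3 between. Hba-a1 was 38.3-fold (36.6 to 40.2) higher in tumour 2 than in tumour 1 and 18.0-fold (17.2 to 18.9) higher in tumour 3. For Hba-a2 the folds were 23.8 (23.1 to 24.6) and 12.6 (12.3 to 13.1). Summed, the alpha genes were at 107, 3030 and 1532 CPM, and within the shared lane tumour 2 was 1.98-fold (1.94 to 2.01) above tumour 3.

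The beta globin genes followed the same split between tumour 1 and the others, but with a smaller span. Hbb-bs was at 71.5, 217 and 242 CPM, from 4946, 1746 and 3802 counts. Hbb-bt was at 6.90, 114 and 75.7 CPM, from 477, 914 and 1191 counts. Tumour 1 was the lowest for both copies, yet its Hbb-bs level was 3.04-fold (2.87 to 3.21) below tumour 2, whereas its Hbb-bt level was 16.5-fold (14.7 to 18.4) below. Against tumour 3 the folds were 3.38 for Hbb-bs and 11.0 for Hbb-bt. Summed, the beta genes were at 78.4, 331 and 317 CPM. Tumours 2 and 3 were within counting error of each other for this sum, at a ratio of 1.04 (0.994 to 1.09). That result depended on the scaling. Their log2 difference was 0.019 with no filter and 0.13 with DESeq2 size factors. With library totals alone it was -0.32, and 0.43 with the trend on GC content and transcript length removed. The difference of tumour 1 depended on the scaling as well. With library totals alone the beta sum of tumour 1 was lower by log2 differences of -1.03 from tumour 2 and -1.35 from tumour 3, and with the GC and length trend removed by -1.43 and -1.005. For Hbb-bs alone the library totals gave -0.56 and -1.09.

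All 4 globins together were at 186, 3360 and 1849 CPM, which is 0.0271, 0.237 and 0.170% of all counts of the tumours. On the log2 scale the sum was 10.03 ± 2.21 (SD, n = 3). Tumour 1 was lowest for every globin gene under all 7 other settings of scaling, filter, prior count and GC or length correction. The size of the difference depended on them: the log2 difference of tumour 1 from the mean of the others was -3.75 for the sum, -2.89 with library totals alone and -2.51 with the trend on GC content and transcript length removed. Scaling by library totals alone moved the median of all genes by 0.54, -0.50 and -0.12 in log2 in the 3 tumours.

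Ratios within a library need no scaling between libraries, but the count ratios were not corrected for GC content. The alpha to beta count ratio was 1.37 (1.32 to 1.42) in tumour 1, 9.16 (8.80 to 9.54) in tumour 2 and 4.83 (4.68 to 4.98) in tumour 3. Alpha exceeded beta in every tumour, and the ratio spanned 6.70-fold, with no overlap of the counting intervals. Per base of transcript the ratios were 1.47, 9.86 and 5.17. With the trend on GC content and transcript length removed, log2 CPM was 7.69, 11.17 and 10.04 for alpha. For beta it was 6.85, 8.28 and 7.86. Alpha still exceeded beta in every tumour, least in tumour 1 and most in tumour 2, but the ratio spanned less.

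Division of reads within the pairs also differed between libraries. Hba-a1 to Hba-a2 gave 0.437 (0.416 to 0.459), 0.703 (0.686 to 0.722) and 0.623 (0.607 to 0.639), so Hba-a2 was the larger in each tumour. Hbb-bs to Hbb-bt gave 10.4 (9.44 to 11.4), 1.91 (1.76 to 2.07) and 3.19 (2.99 to 3.41), with Hbb-bs the larger in each. Tumour 1 stood farthest toward Hba-a2 and Hbb-bs, and tumour 2 farthest the other way. Because the copies share most windows of read length, these divisions are uncertain.

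**Figure D2:**
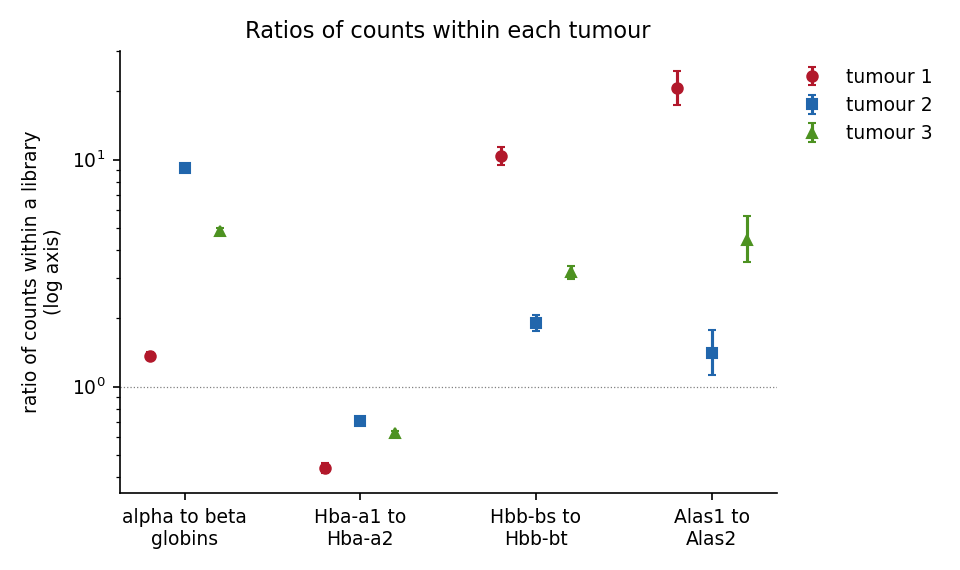
Count ratios within each tumour (log axis) for alpha to beta globins, Hba-a1 to Hba-a2, Hbb-bs to Hbb-bt and Alas1 to Alas2, with exact 95% intervals for counting error. The alpha to beta ratio is lowest and the Hbb-bs to Hbb-bt and Alas1 to Alas2 ratios are highest in tumour 1.

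The synthases of the first step took opposite orders. Alas1 (chromosome 9, 106233455 to 106248654, minus strand), the housekeeping enzyme, was at 41.1, 23.2 and 25.7 CPM, from 2842, 187 and 404 counts. Alas2 (chromosome X, 150547375 to 150570638, plus strand), the erythroid enzyme, was at 1.99, 16.5 and 5.78 CPM, from 138, 133 and 91 counts. Tumour 1 was thus highest for Alas1 and lowest for Alas2, and this held under all 7 other settings. Alas1 was 1.77-fold (1.52 to 2.06) higher in tumour 1 than in tumour 2 and 1.60-fold (1.44 to 1.78) higher than in tumour 3, while tumours 2 and 3 differed within counting error, at 0.905 (0.757 to 1.08). Alas2 was 8.29-fold (6.48 to 10.6) higher in tumour 2 than in tumour 1, 2.90-fold (2.20 to 3.81) higher in tumour 3 than in tumour 1, and 2.86-fold (2.17 to 3.77) higher in tumour 2 than in tumour 3.

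Within a library, Alas1 to Alas2 counts gave 20.6 (17.4 to 24.6), 1.41 (1.12 to 1.77) and 4.44 (3.53 to 5.64). Alas1 had the more counts in each tumour. Per base, however, the ratio was 12.3, 0.843 and 2.66, so in tumour 2 the shorter Alas2 transcript was level with Alas1 within counting error. Globin counts per Alas2 count were 93.1 (78.7 to 111), 203 (171 to 243) and 320 (260 to 397), a 3.44-fold span against the 14.6-fold span of Alas1 to Alas2. Alpha and beta parted here too: beta globin counts per Alas2 count were 39.3, 20.0 and 54.9, and alpha globin counts 53.8, 183 and 265.

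Alad and Uros act in the cytosol and stood in opposite orders between tumour 1 and the others. Alad (chromosome 4, 62509169 to 62519918, minus strand), which joins aminolevulinate into porphobilinogen, was at 54.7, 119 and 108 CPM, from 3785, 954 and 1698 counts. Uros (chromosome 7, 133686243 to 133710072, minus strand), which closes the porphyrin ring, was at 28.3, 4.35 and 7.88 CPM, from 1957, 35 and 124 counts. Alad was 2.17-fold (2.02 to 2.33) and 1.97-fold (1.86 to 2.09) higher in tumours 2 and 3 than in tumour 1. Uros was 6.50-fold (4.66 to 9.36) and 3.59-fold (2.99 to 4.34) higher in tumour 1 than in tumours 2 and 3. These orders against tumour 1 held under all 7 other settings, although with library totals alone the log2 difference of Alad shrank from -1.05 to -0.19. The 35 counts of Uros in tumour 2 are the smallest count of the list and leave a wide interval of 3.03 to 6.05 CPM.

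Fech (chromosome 18, 64452914 to 64490251, minus strand), ferrochelatase, had the smallest range of the 9 genes, though not with the GC and length trend removed, where the log2 difference of tumour 1 from tumour 2 was -1.43, against 0.98 for Alas1 and -0.29 for Alad. Fech was at 23.9, 40.1 and 30.6 CPM, or 31.5 ± 8.18 CPM (SD, n = 3), from 1650, 323 and 482 counts. Tumour 2 was 1.68-fold (1.49 to 1.90) and tumour 3 1.28-fold (1.16 to 1.42) above tumour 1. The order depended on the scaling, since with library totals alone tumour 1 was the highest and the log2 difference of tumour 1 from the others turned from -0.55 to 0.30. The gene has 15 annotated transcripts, more than any other of the 9.

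Further enzymes of the pathway outside the list were described in the same way. Urod, which follows Uros, was at 30.8, 18.8 and 16.3 CPM. Cpox, which follows Urod, was at 23.9, 38.3 and 23.6 CPM. Ppox, the step before ferrochelatase, was at 24.6, 159 and 67.6 CPM, 6.44-fold (5.99 to 6.93) higher in tumour 2 than in tumour 1 and 2.35-fold (2.16 to 2.55) higher than in tumour 3. Of Urod, Cpox and Ppox, only Ppox had its highest and lowest tumours at least 4-fold apart. With these CPM, Ppox and Fech, the last steps, shared the order of Alas2 and Alad, with tumour 2 highest and tumour 1 lowest, whereas Uros and Urod were highest in tumour 1.

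**Figure D3:**
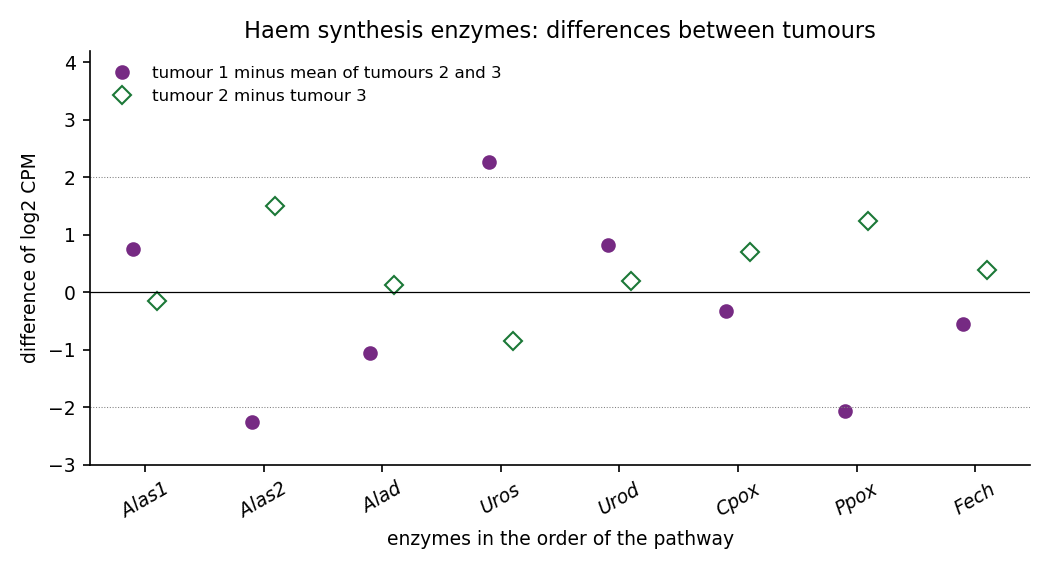
Difference in log2 CPM of tumour 1 from the mean of tumours 2 and 3 (filled) and of tumour 2 from tumour 3 (open) for 8 haem synthesis enzymes in pathway order, with dotted lines at a 4-fold difference. Uros lies above the upper line, Alas2 and Ppox below the lower one.

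Over all 9 genes, the highest and lowest tumours were at least 4-fold apart for 5, namely Hba-a1, Hba-a2, Hbb-bt, Alas2 and Uros, where 29.5% of all tested genes were that far apart. Without tumour 1, that is within 1 lane, none of the 9 was, beside 142 of 13052 genes, and without tumour 2 it was 3 of 9, beside 2623 of 14343 genes. Library totals alone gave 4 of 9, beside 5026 of 12710 genes, so the count over all genes was larger while that of the list was smaller. Tumour 1 was at least 4-fold below both others for 3 of 9 genes, Hba-a1, Hba-a2 and Hbb-bt, against 8.21% of all tested genes, and at least 4-fold above both for 0 of 9, against 6.05%. The median log2 difference of tumour 1 from the others was -1.68 over the 9 genes and 0.11 over all tested genes. The median log2 range over the tumours was 2.68 for the 9 genes and 1.37 for all tested genes. The filter had to be passed in all 3 tumours, so shares over tested genes leave out genes near 0 in 1 of them. Acta1, with 14, 14798 and 24749 counts, is such a gene. With no filter, 5 of the 9 genes were at least 4-fold apart, beside 8923 of 23882 genes.

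The single genes differed in how wide their ranges were. The log2 range of Hba-a1 was 5.26, wider than that of 99.2% of tested genes, followed by Hba-a2 at 4.57, Hbb-bt at 4.03 and Alas2 at 3.01. Hbb-bs had a range of 1.76, wider than 63.0% of genes. Alad at 1.11, Alas1 at 0.82 and Fech at 0.75, wider than 23.8% of genes, were below the median gene.

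**Figure D4:**
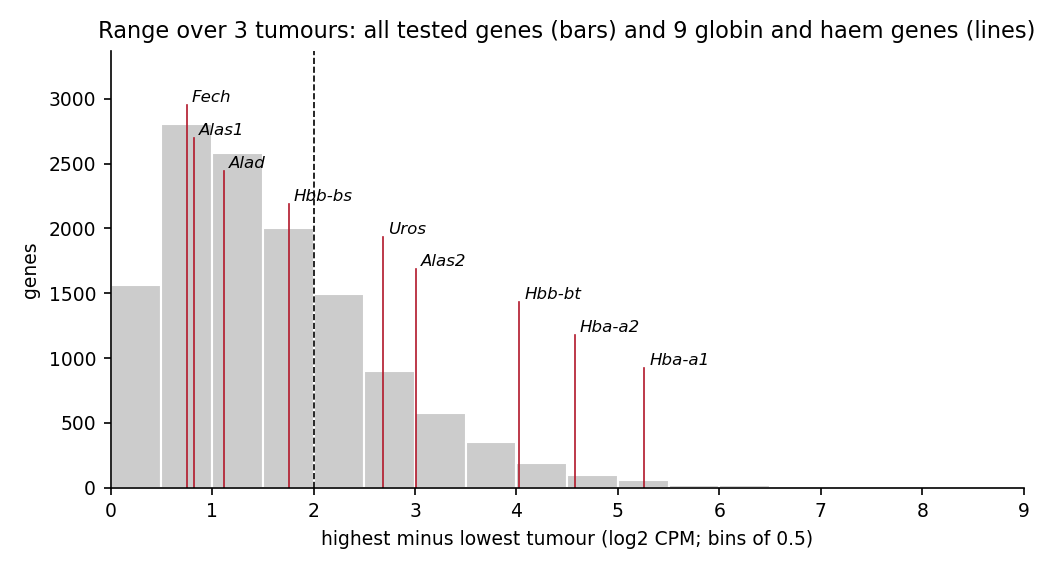
Histogram of the log2 CPM range (highest minus lowest tumour) of all tested genes in bins of 0.5, with a red line for each globin and haem gene (line height has no meaning) and a dashed line at a 4-fold range. Hba-a1, Hba-a2 and Hbb-bt lie far in the right tail and Fech, Alas1 and Alad left of the dashed line.

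Within lane 5, tumour 2 was at least 2-fold above tumour 3 for 2 of 9 genes, Hba-a1 at 2.13-fold and Alas2 at 2.86-fold, where 7.39% of all tested genes were. With library totals alone the log2 difference of Hba-a1 went from 1.09 to 0.71, below that threshold. None of the 9 was at least 2-fold lower in tumour 2 than in tumour 3, against 8.81% of genes, so that 2 of 9 were 2-fold apart in either direction beside 16.2%. All 9 genes differed between the libraries beyond counting noise by a chi-square test with Benjamini-Hochberg adjustment over all genes, with Fech at the largest adjusted p of 4.9e-19. This test compares libraries and not conditions, and 94.2% of all tested genes passed it at 0.05.

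Levels can be set between genes only per length of transcript, here as CPM per kilobase of the longest transcript. Hba-a2 was the highest of the 9 in every tumour, at 135, 3210 and 1704 CPM per kilobase, above 97.3, 99.7 and 99.6% of tested genes. In tumour 1 it was followed by Hbb-bs at 114, Hba-a1 at 46.7, Alad at 30.9, Uros at 12.9, Alas1 at 12.1, Hbb-bt at 9.81, Fech at 3.63 and Alas2 at 0.979. Uros and Alas1 overlapped in their counting intervals there. In tumour 2 the order was Hba-a2, Hba-a1 at 1790, Hbb-bs at 346, Hbb-bt at 162, Alad at 67.0, Alas2 at 8.11, Alas1 at 6.84, Fech at 6.11 and Uros at 1.99, with overlapping intervals for Alas2 and Alas1 and for Alas1 and Fech. In tumour 3 it was Hba-a2, Hba-a1 at 841, Hbb-bs at 385, Hbb-bt at 108, Alad at 61.0, Alas1 at 7.55, Fech at 4.66, Uros at 3.60 and Alas2 at 2.84, with overlapping intervals for Fech and Uros and for Uros and Alas2.

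Alad was the highest of the 5 enzymes in every tumour on this per-length scale. Over the 3 tumours the means were 1683 ± 1538 CPM per kilobase for Hba-a2 (SD, n = 3), 892 ± 873 for Hba-a1, 281 ± 146 for Hbb-bs and 93.0 ± 76.9 for Hbb-bt. The means of Alas1, Uros, Fech and Alas2 ran from 3.98 to 8.83 CPM per kilobase, with SDs of 1.25 to 5.90. Between neighbours in this order, only Alad at 53.0 ± 19.3 and Alas1 at 8.83 ± 2.85 had ranges of the mean ± SD that did not overlap.

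The summed level of other red blood cell markers did not follow the globins. Of 18 such genes 17 were measured, Ahsp was not analysed here, and their summed level was 139, 152 and 122 CPM, from 13, 6 and 7 genes above 0. Epb41, Sptb, Bpgm and Ank1, membrane skeleton and glycolytic genes that other cells express too, carried this sum. The defining genes given here were at or near 0: the anion exchanger Slc4a1 and the Rh glycoprotein Rhag had 0 counts in every tumour, the erythroid factor Klf1 4, 0 and 0, and Hemgn 2, 0 and 0. Taking 3 counts as the limit that a count of 0 allows, these zeros allow up to 0.0434, 0.373 and 0.191 CPM in the 3 tumours. Ank1 stood at 2.14, 23.2 and 19.7 CPM, low in tumour 1 as the globins were, but it is also a skeletal muscle gene. Tmcc2, at 5.67, 10.4 and 6.42 CPM, and Ermap, with 6, 2 and 8 counts or 0.0867, 0.249 and 0.508 CPM, were lowest in tumour 1 too. For Ermap the intervals of tumours 1 and 2 overlapped, at 0.0318 to 0.189 and 0.0301 to 0.898 CPM. Other genes went the other way. Bpgm was highest in tumour 1 at 28.5, 11.3 and 17.1 CPM, and Trim10 had 38, 0 and 0 counts. Sptb was at 34.5, 33.8 and 20.8 CPM and Epb41 at 66.9, 73.3 and 57.6 CPM, both lowest in tumour 3. Tmcc2, Ermap and the defining genes were singled out after their values were seen. The few counts of the defining genes in tumour 1, the deepest library, set no order.

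Summed markers of several other cell types had the order of the globins, though not all their genes did. The 8 platelet genes summed to 12.4, 134 and 86.2 CPM, with 7, 5 and 5 of them above 0. Among them Pf4 was at 7.59, 50.2 and 43.9 CPM and Itga2b at 2.95, 38.7 and 13.6 CPM. All 3 platelet genes that passed the filter were at least 4-fold lower in tumour 1 than in both others, against 8.21% of all tested genes. Ppbp, a defining platelet gene, went the other way with 30, 0 and 0 counts, at 0.434 CPM (0.293 to 0.619) in tumour 1. Zeros allow up to 0.373 and 0.191 CPM in tumours 2 and 3, by the same limit of 3 counts. Gp9 had 3, 0 and 0 counts, which set no order. The 9 endothelial genes, all present in every tumour, summed to 242, 1865 and 721 CPM, with Pecam1 at 56.5, 775 and 231 CPM, and 3 of 9 were at least 4-fold lower in tumour 1. The defining Cdh5 differed less, at 41.2, 72.5 and 46.3 CPM, and Kdr at 19.2, 33.6 and 15.6, Vwf at 8.40, 18.4 and 6.93 and Tek at 5.87, 6.46 and 5.59 CPM were lowest in tumour 3. The 10 skeletal muscle genes, also all present, summed to 16.8, 52028 and 23089 CPM, with Ckm at 0.477, 32750 and 11606 CPM. Macrophage genes summed to 163, 514 and 365 CPM with all 6 present, a sum carried by Csf1r and Mrc1. The defining Adgre1 was at 13.8, 11.6 and 11.9 CPM, and Cd163 at 12.2, 14.3 and 3.88 CPM, lowest in tumour 3. Neutrophil genes summed to 38.6, 32.2 and 50.3 CPM with 7, 5 and 7 of 8 present and the defining Ly6g at 0 throughout. The part of these cell types, of lane and of GC content in the globin and enzyme differences was not tested.

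**Figure D5:**
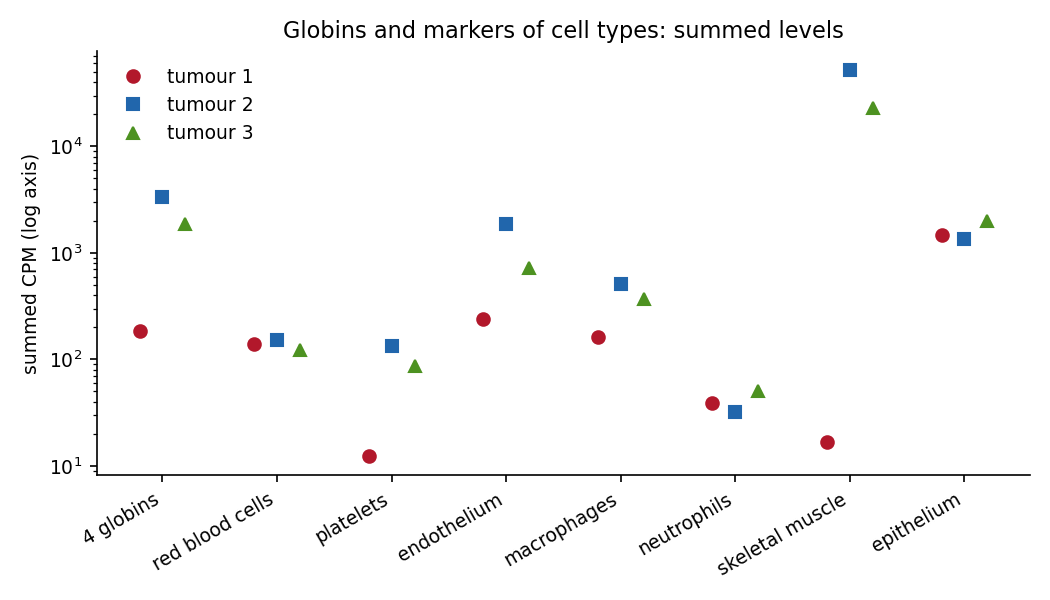
Summed CPM (log axis) of the 4 globins and of marker genes for 7 cell types in each tumour. Globins, platelets, endothelium, macrophages and skeletal muscle are lowest in tumour 1 and highest in tumour 2, whereas the red blood cell markers stay between 122 and 152 CPM.

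Globins of other stages and tissues were examined as a list of 10 genes. The embryonic genes Hba-x, Hbb-y and Hbb-bh1, and also Hbb-bh0 and Hbb-bh2, had 0 counts in all 3 tumours. Myoglobin, Mb, the oxygen store of muscle, was at 1.04, 322 and 240 CPM, and the widely expressed cytoglobin Cygb at 28.5, 222 and 123 CPM. These 2 genes, which alone of the list passed the filter, were both at least 4-fold lower in tumour 1 than in the others, against 8.21% of all tested genes. Mb is also 1 of the 10 skeletal muscle genes given above. Neuroglobin, Ngb, had 9, 0 and 7 counts.

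Mitochondrial transport and iron-sulfur genes, which supply the pathway, were measured for 14 of 15 genes, and Flvcr1 was not analysed here. Of these 14, 5 had tumours at least 4-fold apart, with 3 at least 4-fold lower and 1 higher in tumour 1 than in both others. Over all tested genes these shares were 29.5, 8.21 and 6.05%, so the first and last are near the background. The glutathione carrier Slc25a39 was at 171, 331 and 313 CPM, the iron-sulfur assembly gene Glrx5 at 59.7, 306 and 251 CPM, and the iron importer Slc25a28 at 48.6, 231 and 199 CPM. On the other side, Clpx, a mitochondrial protease subunit that acts on Alas enzymes, was at 27.9, 3.98 and 4.45 CPM. The list held genes of opposite orders.

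Genes of haem breakdown and scavenging and the regulators were mixed as well. Of 9 tested breakdown and scavenging genes, 3 had tumours at least 4-fold apart, 2 being at least 4-fold lower and 1 higher in tumour 1, and the count of 3 is near the 29.5% of all tested genes. The scavenger receptor Lrp1 was at 113, 958 and 505 CPM, haptoglobin Hp, which binds free haemoglobin, at 368, 54.9 and 37.7 CPM, and the haem transporter Slc48a1 at 74.0, 144 and 100.3 CPM. Of 13 tested regulators, 4 had tumours at least 4-fold apart, again near 29.5%, 2 higher and 1 lower in tumour 1 than in both others. The cofactor Ldb1 was at 216, 1817 and 1159 CPM and the haem-sensing kinase Eif2ak1 at 44.9, 36.7 and 35.6 CPM. Aco1 and Ireb2, iron regulatory proteins known to bind the Alas2 transcript, were at 72.1, 5.22 and 10.9 CPM and at 77.2, 10.6 and 18.4 CPM, both highest in tumour 1. The erythroid master factor Gata1 had 1, 0 and 1 counts.

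The genes most like Hbb-bs in pattern were sought among 11456 genes by the root mean square distance of centred log2 CPM over the 3 tumours. Nearest were Adgra1 at 0.0185, Cyp2d22 at 0.0205, Ndufb8 at 0.0249, Rpl8 at 0.0267 and Epor at 0.0334. The other globins were farther, with Hbb-bt at 1.02, Hba-a2 at 1.23 and Hba-a1 at 1.52, while Alad at 0.320 was the nearest of the 9. For Alas1 the nearest were Camk2n1 at 0.00501, Usp22 at 0.00562, Epc1 at 0.00671, Cdadc1 at 0.00767 and Zbtb10 at 0.0111. With only 3 tumours such closeness is a description of these libraries. For genes of low counts these distances lie within counting error: the fold of Epor in tumour 1 over tumour 2 was 0.318 (0.185 to 0.570). The division of reads between Hbb-bs and Hbb-bt is uncertain, so distances from Hbb-bs are uncertain too.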

How the data were processed

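Bulk mRNA of 3 tumours was sequenced with paired reads of 50 bases. Values are Salmon's estimated counts for each symbol as the authors deposited them, per the file headers, not scaled for depth or length. STAR, SAMtools, Picard and mm10 are also named per the submitters' processing notes. How reads were assigned to strands, tool versions and the annotation used were not given in the sources used here, so antisense reads cannot be told apart.

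The estimated counts were rounded. Genes were kept by filterByExpr (edgeR 4.0.16, R 4.3.3, minimum count 10, minimum total 15) and scaled by TMM factors of 1.48, 0.722 and 0.936. CPM come from the scaled totals, and log2 CPM use a prior count of 2. A gene was called when its highest and lowest tumours were at least 4-fold apart (2-fold within lane 5). A chi-square test of counts against scaled totals was Benjamini-Hochberg adjusted over 12710 genes. It was run on simulated counts that held counting noise only, apart from set changes in tumour 1. How it behaves with further variation between tumours was therefore not tested. Alternatives were DESeq2 1.42.0 size factors, library totals alone, no filter, other prior counts and thresholds, totals without skeletal muscle genes and Rn18s-rs5, removal of the GC and length trend, and leaving out each tumour. Lengths and coding sequences came from GENCODE M21, promoters from RefSeq.

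The named genes are the 9 genes, 4 further enzymes and, from each other list, those with the 3 highest means or 2 largest ranges, and a few of these are not reported here. Defining markers and genes listed at 0 were named for their role. Genes and lists were chosen with earlier results of these data known.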

Additional observations from a re-analysis of the deposited data

How the results depend on the processing

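Of 230 alternative values of 26 results, 218 stayed within the spread between tumours (for counts of genes, within 1.5 times) and 12 moved. That spread is the SD over the 3 tumours and includes the difference of tumour 1 itself, so it is a loose limit. With the GC and length trend removed, the log2 difference of tumour 1 went from -3.75 to -2.51 for the summed globins. For Hbb-bs it went from -1.68 to -0.83, and both shifts stayed within the limit. The number of the 9 genes whose tumours were at least 4-fold apart was 5, and leaving out 1 tumour at a time gave 0 to 5, with 0 without tumour 1 and 3 without tumour 2. Over all tested genes it was 3755, and 142 to 3860 with 1 tumour left out, 142 being without tumour 1. It was 8923 of 23882 genes with no filter, where more genes were counted, 8337 at a 2-fold and 1362 at an 8-fold threshold. The log2 difference of tumour 1 from the others moved with library totals alone for Alas1 from 0.75 to 1.60, for Alad from -1.05 to -0.19 and for Fech from -0.55 to 0.30, which is the only change of sign. With the GC and length trend removed it was -0.28 for Alad and -1.22 for Fech. The mean log2 CPM of Alas1 was 4.86, and 4.31 without tumour 1. These causes were not tested. No paired analysis was possible because there is 1 group only. Depth limits Uros and Alas2 most, at 35 to 133 counts in tumours 2 and 3.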
